A study of Homo sapiens with 10 samples.

Results

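Divergent promoter lncRNAs are long non-coding RNA genes that start close to a coding gene and are transcribed away from it, and the gene nomenclature names many of them after that coding gene with the ending DT. The members described here were all lncRNA genes of the count table whose GENCODE symbol ends in -DT and whose counts summed to at least 100 over all 10 libraries. They were 373 of 582 such names, out of 78932 gene identifiers in the table, and 30 of the 209 names below the threshold had 0 counts. Each was set beside its partner, the coding gene whose symbol stands before -DT. The threshold used the summed counts, so the levels of the members are not a finding, and the sum also holds both groups of the comparison. Just inside it stood HSPA5-DT with 101 counts (93 in the knockdown and 8 in the control libraries), ZBTB44-DT with 101 (52 and 49 in the same order) and NOVA1-DT with 103 (82 and 21). Just outside stood LRRK2-DT with 99 counts (87 knockdown, 12 control), UQCRFS1-DT with 97 (33 knockdown, 64 control) and LAPTM4A-DT with 95 (81 knockdown, 14 control).

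The cells were cardiomyocytes made from H1 cells, a long-established line of human embryonic stem cells, and were beating when they were transfected on day 9 of differentiation. A GapmeR is an antisense oligonucleotide that directs RNase H to an RNA. The 5 knockdown libraries came from cells given 50 nM of GapmeR against an RNA named CLIPPER, and the 5 control libraries from cells given 50 nM of a control GapmeR, both with a lipid reagent and both collected 48 hours later. Every library is therefore from transfected cells of 1 cell line, no source used here gives the number or sequence of the GapmeRs, and the level of CLIPPER itself was not analysed here, because no gene of the annotation carries that name. Libraries held 32.9 to 45.1 counts in units of 1e6. The first principal component held 85.2% of the variance and separated the groups, with knockdown replicate 2 at 49.5, the other knockdown libraries at 93.3 to 140 and the controls at -102 to -108. The summed level of 8 cardiomyocyte markers was 8903 to 15508 CPM (counts per 1e6 counts of a library) in the knockdown libraries and 23426 to 33208 CPM in the control libraries, and 7 of the 8 fell. Of 6 pluripotency markers 4 were tested: LIN28A and DPPA4 rose, to 2.51 and 1.65 CPM in the knockdown against 0.258 and 0.211 CPM in the control libraries, DNMT3B fell and TDGF1 did not pass, while NANOG and POU5F1 had too few counts. Their summed level was 8.01 to 9.69 CPM in the knockdown and 7.59 to 10.3 CPM in the control libraries. All 4 smooth muscle markers fell, with sums of 474 to 870 CPM in the knockdown and 1145 to 2385 CPM in the control libraries. In bulk RNA, fewer cells of a type and less RNA per cell cannot be told apart, and the part of cell composition in the values below was not tested.

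At most active promoters RNA polymerase II starts in both directions. The RNA that runs upstream is usually short-lived: early polyadenylation signals end it and the nuclear exosome degrades it, while U1 snRNP, which binds 5′ splice sites, protects the coding direction from early ends. DT genes are the divergent transcripts that are long and stable enough to have been annotated, and few of them have a known function of their own.

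All 373 members lay on the strand opposite to their partner. The 5′ ends of 270 pairs were apart and those of 103 overlapped. The median gap was 85 bases (quartiles -52 and 186, negative where the genes overlap). Of the pairs 260 (69.7%) lay within 300 bases, while in 16 the 5′ ends lay more than 2000 bases from each other. The stretches between the 5′ ends were read only for named pairs with non-overlapping ends at most 240 bases apart, which limited their length. They are shown for 9 pairs that the results below turn on, with 30 transcribed bases of each gene on either side, read from GRCh38 with GENCODE release 44 ends and written 5′ to 3′ on the partner's strand. The DT gene runs to the left and the partner to the right, and capitals mark GGGCGG (the GC box) and CCAAT on either strand.

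The first 5 belong to lncRNAs that rose in the knockdown, the next 3 to lncRNAs that fell, and the last to a lncRNA whose partner rose while it did not pass the test.
TBC1D22A-DT, chr22:46762535-46762646, plus strand: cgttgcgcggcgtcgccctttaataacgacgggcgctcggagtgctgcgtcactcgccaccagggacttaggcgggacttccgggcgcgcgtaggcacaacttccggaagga
RANBP3-DT, chr19:5978113-5978362, minus strand: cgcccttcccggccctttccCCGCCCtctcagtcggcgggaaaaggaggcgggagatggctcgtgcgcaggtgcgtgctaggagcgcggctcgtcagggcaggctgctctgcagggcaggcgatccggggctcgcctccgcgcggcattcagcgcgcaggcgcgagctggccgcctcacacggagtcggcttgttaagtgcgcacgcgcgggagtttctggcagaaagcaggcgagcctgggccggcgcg
CAPN10-DT, chr2:240586670-240586763, plus strand: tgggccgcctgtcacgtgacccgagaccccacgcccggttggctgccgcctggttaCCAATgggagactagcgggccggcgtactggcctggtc
TRMT61A-DT, chr14:103529043-103529225, plus strand: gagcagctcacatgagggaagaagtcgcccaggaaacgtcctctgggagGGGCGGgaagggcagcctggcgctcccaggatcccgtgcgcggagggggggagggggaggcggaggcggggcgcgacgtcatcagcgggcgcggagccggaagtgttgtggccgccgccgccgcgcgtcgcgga
NUP93-DT, chr16:56729981-56730147, plus strand: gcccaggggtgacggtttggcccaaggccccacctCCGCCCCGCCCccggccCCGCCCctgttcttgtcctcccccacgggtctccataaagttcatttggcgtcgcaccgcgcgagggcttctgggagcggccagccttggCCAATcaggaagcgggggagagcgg
COPB2-DT, chr3:139389707-139389790, minus strand: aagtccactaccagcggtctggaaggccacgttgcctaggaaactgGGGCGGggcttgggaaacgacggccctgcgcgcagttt
TMEM30A-DT, chr6:75284919-75285021, minus strand: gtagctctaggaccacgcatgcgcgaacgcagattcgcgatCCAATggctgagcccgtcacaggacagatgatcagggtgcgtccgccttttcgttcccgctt
SRP14-DT, chr15:40039152-40039271, minus strand: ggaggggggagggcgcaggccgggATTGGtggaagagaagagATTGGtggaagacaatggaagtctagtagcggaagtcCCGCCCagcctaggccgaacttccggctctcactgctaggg
ZNF8-DT, chr19:58278801-58278984, plus strand: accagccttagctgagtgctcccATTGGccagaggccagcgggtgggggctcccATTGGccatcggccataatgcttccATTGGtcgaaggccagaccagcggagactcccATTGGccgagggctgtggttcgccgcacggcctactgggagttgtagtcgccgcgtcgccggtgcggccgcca

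The stretch of CAPN10-DT held 1 CCAAT and no GC box, that of ZNF8-DT held 4 CCAAT and that of TBC1D22A-DT held neither motif. In RefSeq promoter windows of GRCh38, which run from 250 bases before to 50 after a gene's start, 286 of the members had an entry and 74.1% of these held GGGCGG on either strand. The share was 73.3% for the windows of 307 partners and 44.6% among all 27305 promoters of that table. TATAAA was in 3.15% of the members' windows, 6.19% of the partners' windows and 11.95% of all windows. For CCAAT these shares were 31.5%, 39.1% and 35.7%. The median GC content was 69.3% for the members, 68.0% for the windows of 307 partners and 58.3% for all promoters. The GGGCGG share was 75.1% for 193 members that rose and 79.4% for 34 that fell. A match is a string of letters in a window and not a shown binding site.

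Most DT lncRNAs were higher after the knockdown. Of 368 members with enough counts to be tested, 259 rose (70.4%), 42 fell (11.4%) and 67 did not pass, at an adjusted p below 0.05 in edgeR's quasi-likelihood test. Of all 21033 tested genes 79.7% were called, 40.1% higher and 39.6% lower. The members had a median log2 fold change of 1.36, a 2.57-fold difference, with quartiles at 0.30 and 2.38, against 0.0056 for all genes. The 5 members with too few counts for a test were SH3TC2-DT, NDUFV1-DT, BTG2-DT, NOVA1-DT and HSPA5-DT. In 229 members all knockdown libraries lay above all controls, and 33.7% of all tested genes showed that separation.

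The change was visible in the sum over all 373 members. It was 2232, 1814, 2566, 2740 and 2542 CPM in knockdown replicates 1 to 5, and 877, 919, 850, 882 and 907 CPM in control replicates 1 to 5. The groups did not overlap, and the lowest knockdown library was replicate 2. The means were 2379 ± 365 CPM in the knockdown and 887 ± 27.1 CPM in the control libraries (SD, n = 5 each), a ratio of 2.68. The summed level of the partners was 29790 ± 2426 CPM in the knockdown and 30528 ± 820 CPM in the control libraries, a ratio of 0.976. Among the 259 members that rose, knockdown replicate 2 was the lowest knockdown library in 189 and replicate 4 the highest in 118. Of the 42 that fell, replicate 2 was the highest knockdown library in 24.

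**Figure D1:**
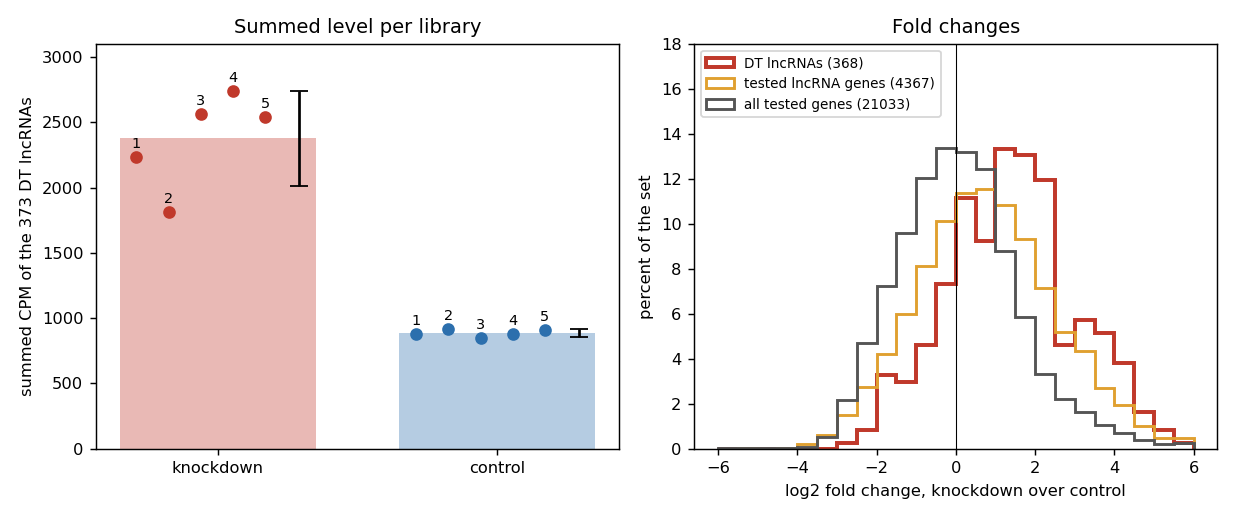
The left panel plots the summed CPM of the 373 DT lncRNAs in each library, with bars at the group mean, error bars of 1 SD (n = 5 each) and the replicate number above each point. The right panel plots the share of genes by log2 fold change, and the DT lncRNAs (median 1.36) lie to the right of all tested genes (median 0.0056).

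Divergent lncRNAs that were not members did the same, a set that can hold DT names below the count threshold. Of 1198 other tested lncRNAs that start within 2000 bases of a coding gene on the opposite strand, 72.0% rose and 10.7% fell (median log2 fold change 1.37). Of the 2801 tested lncRNAs without such a neighbour, 43.9% rose and 28.7% fell (median 0.32). The members are part of that larger class, and no test set the DT names apart from it.

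The rises with the smallest p included genes beside partners of unrelated function. GOT1-DT (ENSG00000224934, chr10:99430915-99463259, plus strand), beside the gene of the cytosolic aspartate aminotransferase, had 60.4, 55.6, 53.1, 55.5 and 55.6 CPM in knockdown replicates 1 to 5, and 9.21, 9.47, 9.18, 10.9 and 10.9 CPM in control replicates 1 to 5. The groups lay far apart, and the knockdown libraries were close to one another. Its log2 fold change was 2.5 ± 0.0869 (SE; adjusted p = 4.3e-09 in edgeR's quasi-likelihood test), while GOT1 itself, with a log2 fold change of -0.28 ± 0.159, did not pass.

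CAPN10-DT (ENSG00000260942, chr2:240582700-240586699, minus strand), whose partner encodes the protease calpain 10, had 66.7, 45.6, 68.2, 76.4 and 76.6 CPM in the knockdown libraries, and 3.87, 3.74, 4.77, 3.71 and 5.02 CPM in the control libraries. Even the lowest knockdown library, replicate 2, stood well above every control. The log2 fold change was 3.98 ± 0.164 (SE; adjusted p = 9.1e-09 in edgeR's quasi-likelihood test), a 15.8-fold rise. CAPN10 fell, to 8.27 ± 2.41 CPM in the knockdown, against 22.8 ± 2.24 CPM in the control libraries (SD, n = 5 each).

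TRMT61A-DT (ENSG00000260285, chr14:103525010-103529072, minus strand), beside the gene of the catalytic subunit of a tRNA adenosine methyltransferase, had 58.7, 37.9, 45.3, 48.5 and 45.9 CPM in the knockdown libraries, and 3.31, 4.43, 4.23, 4.52 and 3.83 CPM in the control libraries. The groups did not overlap, and the fold was 11.6. Its partner moved the same way by much less, with a log2 fold change of 0.46 for TRMT61A and 3.54 for the lncRNA. OTULIN-DT rose 12.2-fold while OTULIN, a deubiquitinase of linear ubiquitin chains, fell with a log2 fold change of -0.41. STAM-DT rose 29.9-fold and SUGT1-DT 19.8-fold beside partners of endosomal sorting and of HSP90 co-chaperone function, which had log2 fold changes of 0.34 and 0.64. RNF139-DT rose 16.9-fold and ZMPSTE24-DT 7.05-fold. Both partners, a ubiquitin ligase of the endoplasmic reticulum and the protease that processes prelamin A, rose with log2 fold changes of 0.96 and 1.17.

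Among the 6 members that drew the most reads, 5 rose, against 70.4% of all tested members. The ranking used the mean of both groups, so a large rise could itself bring a member among the 6. BAIAP2-DT had 141 ± 26.2 CPM in the knockdown and 23.5 ± 3.67 CPM in the control libraries (SD, n = 5 each), with a log2 fold change of 2.59. NIPBL-DT, beside the cohesin loader gene NIPBL, had 99.5, 76.5, 158, 180 and 154 CPM in the knockdown libraries, and 32.8, 26.0, 37.3, 28.9 and 26.8 CPM in the control libraries. No knockdown library reached down to the controls, although replicates 1 and 2 were lower than the other three. TMEM161B-DT rose with a log2 fold change of 1.21. PRDM16-DT, beside the gene of a transcription factor linked to cardiomyopathy, had 67.5 ± 9.64 CPM in the knockdown and 19.9 ± 6.95 CPM in the control libraries, and PRDM16 fell to 15.9 ± 3.61 CPM in the knockdown, against 84.6 ± 13.2 CPM in the control libraries (SD, n = 5 each).

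GJD2-DT (ENSG00000250007, chr15:34755084-34813505, plus strand) was the exception among these 6. Its partner encodes the gap junction protein connexin 36 and had too few reads to be tested, with 0.144 ± 0.102 CPM in the knockdown and 0.236 ± 0.0911 CPM in the control libraries. GJD2-DT had 12.5, 34.8, 16, 16.6 and 15.1 CPM in the knockdown libraries, and 89.4, 98.0, 38.5, 56.4 and 33.7 CPM in the control libraries. It fell, with a log2 fold change of -1.73 ± 0.348 (SE; adjusted p = 0.00055 in edgeR's quasi-likelihood test), but knockdown replicate 2 overlapped the lowest control, and the controls differed widely among themselves.

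**Figure D2:**
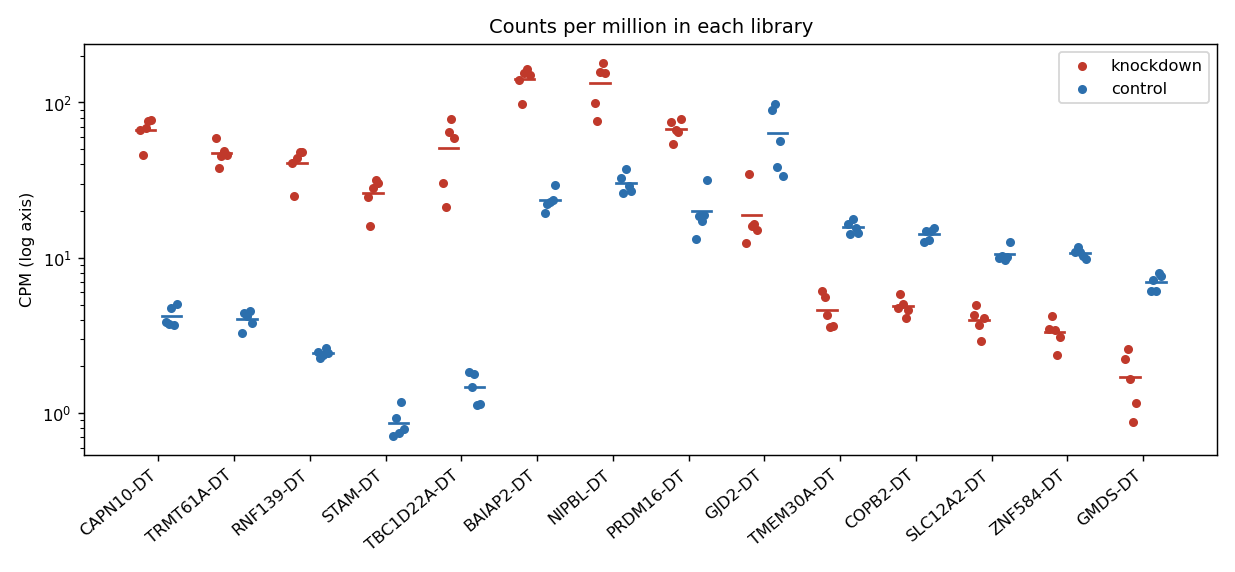
Points give the CPM of named DT lncRNAs on a log axis in each of the 5 knockdown and, to their right, the 5 control libraries, with a line at each group's mean. The knockdown libraries of CAPN10-DT (45.6 to 76.6 CPM) lie above its controls (3.71 to 5.02 CPM), and those of COPB2-DT (4.12 to 5.86 CPM) below (12.7 to 15.6 CPM).

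The falls were fewer. COPB2-DT (ENSG00000248932, chr3:139389761-139782699, plus strand), beside the gene of a coatomer subunit of Golgi transport vesicles, had 4.77, 5.86, 5.01, 4.12 and 4.59 CPM in the knockdown libraries, and 12.7, 14.9, 13.1, 15.0 and 15.6 CPM in the control libraries. The groups did not overlap. Its log2 fold change was -1.54 ± 0.116 (SE; adjusted p = 2.1e-07 in edgeR's quasi-likelihood test), and COPB2 did not pass, with 234 ± 6.91 CPM in the knockdown and 242 ± 2.27 CPM in the control libraries (SD, n = 5 each). TMEM30A-DT, whose partner encodes a subunit of phospholipid flippases, fell 3.37-fold, and TMEM30A did not pass (log2 fold change 0.12). SLC12A2-DT, SCMH1-DT, MAP4K3-DT and GMDS-DT fell together with their partners: the log2 fold changes of the lncRNAs were -1.40, -2.13, -1.66 and -2.01, and those of the partners -1.86, -2.67, -2.21 and -2.05. SLC12A2 encodes a sodium, potassium and chloride cotransporter, SCMH1 a Polycomb protein and GMDS the enzyme that starts GDP-fucose synthesis. PCMTD1-DT fell with a log2 fold change of -0.998 and its partner with -0.74. Exons of all of these except PCMTD1-DT overlap exons of other genes, and no source used here gives the strand setting of the counting, so their counts are uncertain. Among other named members the same holds for TMEM161B-DT, GJD2-DT, ZNF594-DT, SRP14-DT, ZNF8-DT, ZNF496-DT, TCF12-DT, KCNQ5-DT, COX10-DT, WDR5B-DT, GARS1-DT, EIF3J-DT, H2AZ1-DT, UBA6-DT, MARCHF6-DT and RNF32-DT. It holds as well for NOVA1-DT, which was not tested.

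Exon overlap moved with the result, and the members without it rose more often. Of 208 tested members whose exons touch no other gene's exon, 162 rose and 13 fell (median log2 fold change 1.73). Of the 160 with an overlap, 97 rose and 29 fell, with a median of 0.99. Of the 84 members at a mean of at least 5 CPM, 70 rose and 11 fell, with a median of 1.77, but that mean also holds both groups. The threshold on the summed count admits members read mainly in 1 group: 67 members had under 50 counts over the 5 control libraries and 10 had under 50 over the 5 knockdown libraries, and the direction of such members is largely set by the threshold. Of the 63 tested members with under 50 control counts, 59 rose and 0 fell. Of the 305 tested members with at least 50 control counts, 200 rose (65.6%) and 42 fell (13.8%), with a median of 1.14.

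Short members rose more than long ones. Of 118 members spanning up to 3 kb, introns included, 107 rose (90.7%) and 3 fell (2.54%), with a median log2 fold change of 2.34. The median was 1.38 for 77 members of 3 to 10 kb, 0.99 for 70 of 10 to 30 kb, 0.31 for 65 of 30 to 100 kb and 0.58 for 38 longer ones, of which 20 rose and 11 fell. Over all tested lncRNA genes the medians of the same span classes were 1.44, 0.76, 0.51, 0.07 and -0.40. Of those spanning up to 3 kb 66.8% rose and 13.3% fell. Over 100 kb 29.4% of all tested lncRNA genes rose and 46.2% fell, against 52.6% and 28.9% of the members. Across the 368 members the rank correlation of fold change with span was -0.467, and across 4367 lncRNA genes it was -0.336. The members in these classes and correlations include those with under 50 control counts, whose direction is largely set by the threshold. Span classes without them were not computed. Genes are not independent replicates, and these values describe the libraries.

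**Figure D3:**
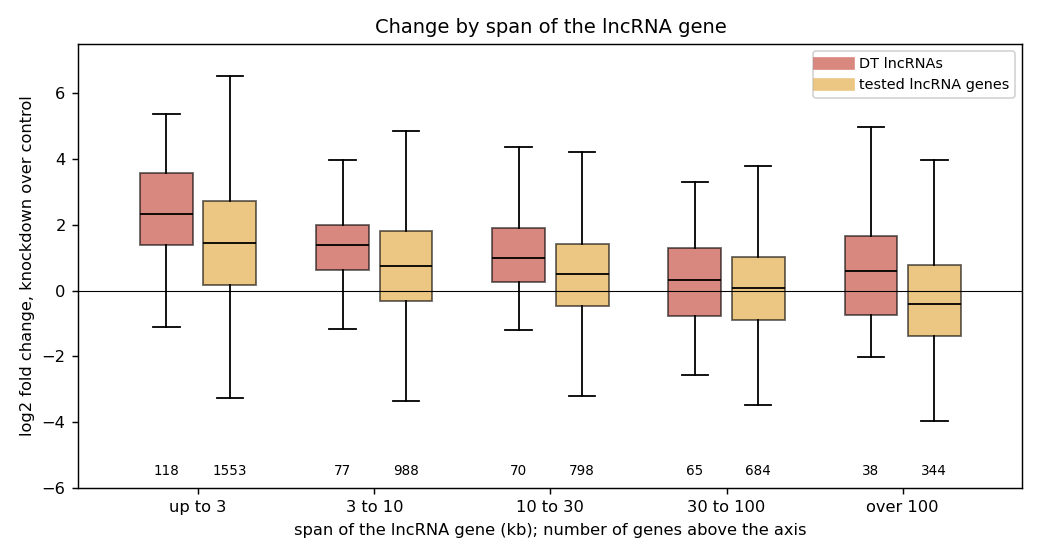
Boxes give the quartiles and median of the log2 fold change by gene span for DT lncRNAs and for all tested lncRNA genes, whiskers reach up to 1.5 interquartile ranges, and points beyond them are not drawn. The DT median is 2.34 up to 3 kb and 0.31 at 30 to 100 kb.

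The pairs were then compared gene by gene, to see whether a lncRNA and the coding gene across the promoter moved together. Of the 370 partners with enough counts to be tested, 122 rose (33.0%) and 192 fell (51.9%), with -0.33 as the median log2 fold change. These shares were near those of all 14777 tested coding genes, of which 34.7% rose and 47.0% fell (median -0.22). Among the 365 pairs with a ratio test, 137 had a rising lncRNA and a falling partner, 85 had both rising, 21 both falling and 11 a falling lncRNA with a rising partner. Opposite calls thus made up 40.5% of pairs and like calls 29%, and over all 1529 head-to-head pairs these shares were 37.0% and 32.2%. The rank correlation between the fold changes of lncRNA and partner was -0.0051 across 365 pairs, which share libraries and scaling.

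**Figure D4:**
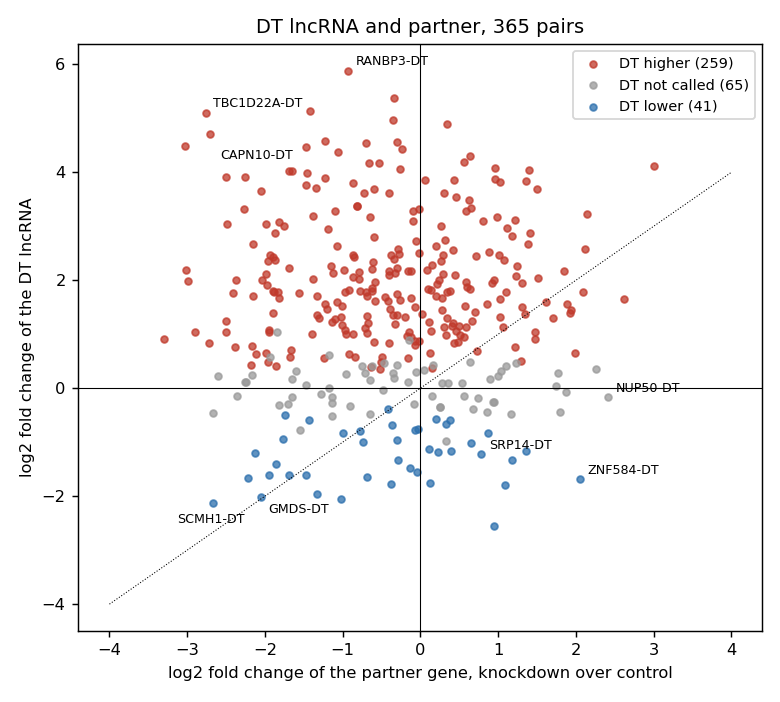
Each point is a pair of a DT lncRNA (vertical axis) and its partner (horizontal axis), as log2 fold change of the knockdown over the control libraries, coloured by the call of the lncRNA, with the dotted line at equal change. The rank correlation is -0.0051, and 137 pairs combine a rising lncRNA with a falling partner.

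The ratio of lncRNA to partner reads within a library does not depend on how libraries are scaled. It rose in 270 of 365 pairs and fell in 43, at an adjusted p below 0.05 in limma over all 1529 head-to-head pairs, of which 69.6% were called higher and 11.2% lower. The median log2 change of the ratio was 1.68 for DT pairs and 1.59 for the 1164 other pairs. In 233 DT pairs every knockdown ratio exceeded every control ratio, and 60.4% of all pairs did so. Ratios did not overlap between the groups in 68.5% of all pairs, with the knockdown lower in 8.11%. The DT pairs include members with under 50 control counts, whose direction is largely set by the threshold. The ratio was not tested without them.

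The ratio changed most for TBC1D22A-DT (ENSG00000260708, chr22:46761893-46762564, minus strand), a lncRNA of 0.672 kb whose partner encodes a member of the TBC family of Rab GTPase regulators. It had 30.5, 21.3, 64.8, 78.6 and 58.7 CPM in the knockdown libraries, and 1.83, 1.49, 1.79, 1.13 and 1.14 CPM in the control libraries. TBC1D22A had 3.67, 6.73, 2.5, 2.54 and 4.19 CPM in the knockdown libraries, and 27.7, 26.4, 25.2, 26.4 and 28.2 CPM in the control libraries. Neither gene's groups overlapped, and the genes moved in opposite directions from 5′ ends 52 bases apart. The ratio rose 227-fold (log2 change 7.83 ± 0.490 SE, adjusted p = 7.4e-09 in limma), and the log2 change was 8.68 without knockdown replicates 1 and 2, where the lncRNA was lowest among the knockdown libraries.

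NUP93-DT had 7.73 ± 1.23 CPM in the knockdown and 0.504 ± 0.180 CPM in the control libraries, and NUP93, a nuclear pore gene, 19.3 ± 6.83 CPM in the knockdown and 109 ± 1.66 CPM in the control libraries (SD, n = 5 each). The ratio of this pair rose 92.7-fold. POU2F1-DT and ITPR1-DT, beside the genes of the transcription factor OCT1 and of a calcium release channel, had ratio changes of 6.53 and 6.16 on the log2 scale. POU2F1-DT had 480 counts in the knockdown and 13 in the control libraries, so its value rests on few control reads and it passed the threshold through the knockdown libraries, as did RANBP3-DT with 628 counts there. RANBP3-DT reached 3.41, 2.65, 3.67, 3.24 and 3.34 CPM in the knockdown libraries, and 0.0509, 0.0232, 0.0298, 0.135 and 0.0253 CPM in the control libraries, which held 10 counts of it in all. The groups did not overlap. Its log2 fold change was 5.88, and 6.50 without control replicate 4, the highest control.

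The opposite pattern, a ratio that fell, came with rising partners in most of the named pairs. ZNF584-DT had 3.32 ± 0.667 CPM in the knockdown and 10.7 ± 0.741 CPM in the control libraries, and the zinc finger gene ZNF584 had 50.7 ± 17.2 CPM in the knockdown and 12.2 ± 0.620 CPM in the control libraries (SD, n = 5 each). Both genes changed, in opposite directions, and the log2 change of the ratio was -3.69 ± 0.311 (SE; adjusted p = 1.0e-07 in limma). ZNF594-DT fell beside a rising ZNF594, with a ratio change of -2.89. SRP14-DT had 5.41, 7.96, 3.65, 4.05 and 4.03 CPM in the knockdown libraries, and 9.82, 14.4, 9.59, 13 and 12.2 CPM in the control libraries. The groups did not overlap, and SRP14, a subunit of the signal recognition particle, rose with a log2 fold change of 0.79.

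NUP50-DT and ZNF8-DT did not pass while their partners rose. NUP50-DT had 3.61 ± 0.783 CPM in the knockdown and 4.06 ± 0.371 CPM in the control libraries, and the nuclear pore gene NUP50 had 178 ± 44.5 CPM in the knockdown and 33.2 ± 3.55 CPM in the control libraries (SD, n = 5 each). ZNF8-DT had 9.60, 8.66, 8.82, 8.20 and 7.02 CPM in the knockdown libraries, and 8.95, 7.98, 8.19, 8.10 and 7.93 CPM in the control libraries, so its groups overlapped. ZNF8 had 85.3 ± 7.90 CPM in the knockdown and 25.4 ± 1.12 CPM in the control libraries. Without knockdown replicates 1 and 2 NUP50-DT passed with a log2 fold change of -0.39.

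The changes of the pairs differed with the partner's length. Where the partner spanned up to 10 kb (52 pairs), the median log2 change was 1.27 for the lncRNAs, 0.93 for the partners and 0.37 for the ratio. At 10 to 30 kb (81 pairs) these medians were 1.37, 0.39 and 1.14, and at 30 to 100 kb (131 pairs) 1.31, -0.42 and 1.92. At 100 to 300 kb (77 pairs) they were 1.61, -1.38 and 2.73, and beyond 300 kb (24 pairs) 2.02, -2.15 and 4.26. The lncRNA medians were positive in every class, and the partner medians were positive below 30 kb and negative above. In the longest class the ratio rose in 21 of 24 pairs (87.5%) and fell in 1, against 69.6% and 11.2% of all head-to-head pairs of any span. The rank correlation of fold change with the partner's span was -0.691 for the partners and 0.108 for the lncRNAs, over the same 365 pairs. Span classes of all tested coding genes and of the other head-to-head pairs were not computed. Whether the trend is particular to DT pairs was therefore not tested. Members with under 50 control counts were kept in these classes as well.

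**Figure D5:**
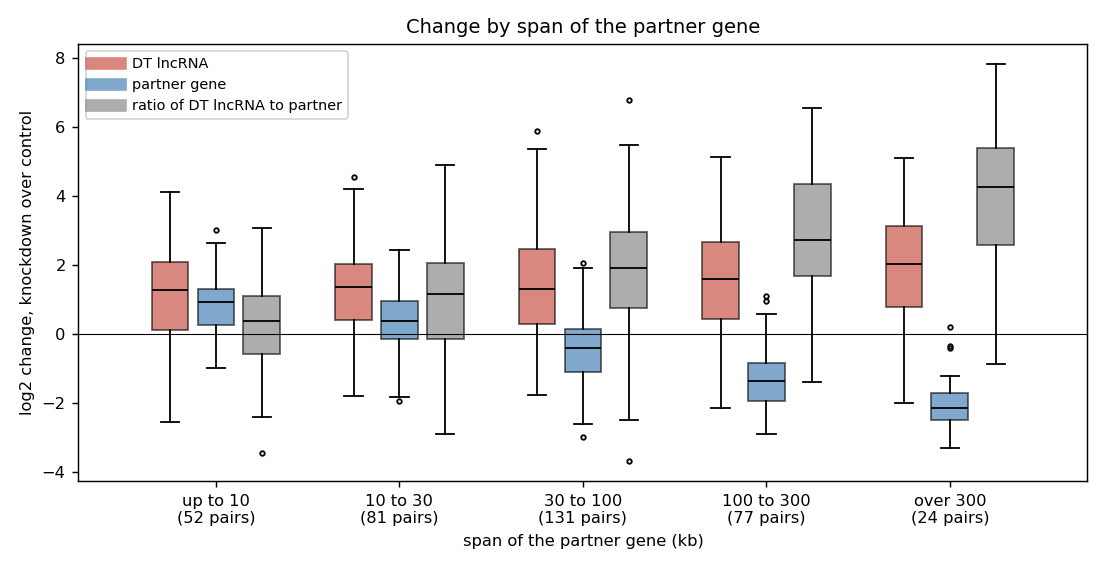
Boxes give the quartiles and median of the log2 change of DT lncRNAs, their partners and the ratio by span of the partner gene, with whiskers up to 1.5 interquartile ranges and points beyond. The partner medians run from 0.93 to -2.15, and the ratio medians from 0.37 to 4.26.

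The members were also grouped by partner, through patterns in the partner's symbol, which sort by name and not by shown function. The counts below stand against the 70.4% of all tested members that rose and the 11.4% that fell, the groups are small, and no test set any of them apart. All 9 members of the group for cell cycle and genome maintenance rose (median log2 fold change 2.43), while 3 of their partners rose and 6 fell. H2AZ1-DT, beside a histone variant gene, rose 5.96-fold and CDK13-DT, beside a kinase of RNA polymerase II, 9.14-fold. RNASEH1-DT, beside the gene of ribonuclease H1, had 19, 17, 18.9, 21.7 and 19.7 CPM in the knockdown libraries, and 6.28, 6.34, 5.13, 6.21 and 6.13 CPM in the control libraries. The groups did not overlap, and RNASEH1 fell to 11.8 ± 4.06 CPM in the knockdown, against 42.0 ± 1.54 CPM in the control libraries (SD, n = 5 each).

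In the group patterned on heart and contraction symbols 4 of 5 members rose and none was called lower. Its patterns also took in MYH9, a non-muscle myosin gene, and KCNQ5, a potassium channel gene, so the count does not describe heart genes alone. FOXP1-DT, whose partner encodes a forkhead factor, had 18.5, 13, 16.3, 15.9 and 19.4 CPM in the knockdown libraries, and 3.18, 3.09, 2.92, 2.93 and 3.65 CPM in the control libraries, while FOXP1 fell with a log2 fold change of -0.34. ISL1-DT, beside the gene of a factor of second heart field progenitors, rose 1.80-fold, and IRX2-DT 1.62-fold with overlapping groups. KCNQ5-DT rose 1.89-fold while KCNQ5 fell with a log2 fold change of -3.30. MYH9-DT did not pass (log2 fold change -0.10) beside MYH9.

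In the group patterned on mitochondrial symbols 5 of 10 members rose and 3 fell. MRPL20-DT, beside a gene of the mitochondrial ribosome, rose 3.06-fold and COX10-DT, beside a gene of heme A synthesis, had a log2 fold change of 0.59. MRPS30-DT did not pass (0.10). DNAJC3, whose product is an endoplasmic reticulum co-chaperone, had been placed in this group by the pattern of its symbol. DNAJC3-DT rose with a log2 fold change of 0.44 (adjusted p = 0.025 in edgeR's quasi-likelihood test), a call that did not hold in 6 of the fits with a single library omitted (adjusted p of 0.0544 to 0.0818).

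Of 24 members beside transcription factor genes 17 rose (70.8%) and 2 fell, with RFX3-DT and TCF12-DT at log2 fold changes of 2.36 and 2.38 beside falling partners (-1.95 and -1.87), and ZNF496-DT at 1.78. Of 22 in the group patterned on symbols of RNA processing and translation 12 rose (54.5%) and 3 fell. That group holds partners by name, WDR5B among them, and not by shown function. EIF3J-DT, beside a translation initiation factor gene, had a log2 fold change of 1.36, WDR5B-DT 0.83 and GARS1-DT, beside the glycyl-tRNA synthetase gene, -1.34. Of 15 in the group patterned on symbols of protein folding, ubiquitin and autophagy 10 rose (66.7%) and 2 fell. UBA6-DT and MARCHF6-DT, beside a ubiquitin-activating enzyme and a ubiquitin ligase gene, had log2 fold changes of 1.53 and 1.70, and RNF32-DT had -0.59. Among the 283 members with other partners, 202 rose (71.4%) and 32 fell.

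Genes of the factors known to end or degrade divergent transcripts are given against a background in which 79.7% of all tested genes were called, 40.1% higher and 39.6% lower, so that calls in both directions are not particular to these lists. Of 13 nuclear exosome genes 8 rose and 4 fell (median log2 fold change 0.53). EXOSC5 (1.33) and EXOSC2 (1.55) had the smallest p among those that rose, EXOSC10, the nuclear exonuclease subunit (-0.89), and EXOSC9 (-0.78) among those that fell. Of 11 genes that target RNAs to the exosome 6 rose and 5 fell. SRRT, also called ARS2, had 423 CPM in the knockdown and 88.9 CPM in the control libraries on average, and ZC3H3 had 4.37 CPM in the knockdown and 25.7 CPM in the control libraries. PABPN1 rose (1.80) and ZC3H18 fell (-1.27). Of 17 Integrator genes 7 rose and 7 fell, with NABP1 (1.76) and INTS12 (0.82) rising and INTS4 (-1.55) and INTS1 (-1.02) falling. Of 18 cleavage and polyadenylation genes 8 rose and 6 fell, among them PCF11 (1.70) and XRN2 (0.81) on one side and WDR33 (-1.27) and CPSF1 (-1.01) on the other. Of 6 U1 snRNP protein genes 5 rose, SNRPA (1.41) and LUC7L3 (1.78) with the smallest p, and LUC7L2 fell (-0.27). Their part in the levels of the divergent lncRNAs was not tested.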

How the data were processed

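Total RNA of 5 knockdown and 5 control libraries, depleted of ribosomal RNA and made with a stranded kit per the labels' protocols, was measured as deposited raw counts of reads per gene. Per the submitters' processing notes, the authors used Trim Galore 0.65, STAR 2.7.0 and HTSeq (version and strand setting not given in the sources used here) on GRCh38. Control levels were compared for genes inside an intron of an expressed coding gene. Median CPM per exonic kb on its strand and on the opposite strand were 0.0533 and 0.0241 for lncRNAs. They were 0.0223 and 0.0160 for processed pseudogenes, and 0.0650 and 0.0619 for the annotation class TEC. The strand setting was not settled by these values. The design text names GENCODE release 38, but 17397 of 78932 identifiers lie above the highest of release 44, from which names, spans and exons were taken here (61481 matched), so the gene models counted may differ from those described.

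Counts were tested with edgeR 4.0.16 (trimmed mean of M-values, filterByExpr, robust quasi-likelihood, Benjamini-Hochberg over 21033 genes, threshold 0.05) in R 4.3.3. Ratios, log2((lncRNA + 0.5)/(partner + 0.5)), were tested with limma 3.58.1 over 1529 head-to-head pairs. These include the DT pairs, matched by name at any distance, and other pairs within 2000 bases. The edgeR and limma tests were also run on simulated counts in which only a small part of the genes changed. Most genes were called here, so those runs do not show how the tests behave in these data. For edgeR, a SE was obtained as log2 fold change over the root of the F statistic, and ratios carry limma's moderated error. DESeq2 1.42.0 was an alternative, with other scalings, filters and omitted libraries. Figures used matplotlib 3.10.9. The members and lists were chosen with earlier results of these data known. Named were, by p, the first 8 rises and the first 8 falls (mean of at least 1 CPM, groups not overlapping), the 6 highest levels, the 5 largest and 5 smallest ratio changes, 4 members by level per partner group, 3 on each side of the threshold, and up to 2 rising and 2 falling factors per list; MYH9-DT was added after its value was seen. The labels do not say that replicates were separate cultures, so p-values measure the spread between these samples, which may be technical. The common coefficient of variation was 19.2%.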

Additional observations from a re-analysis of the deposited data

Results flagged for a closer look

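In 108 groups of 5 libraries (the named members and the summed level, in each group), 9 had a library set apart from the other four by a gap of more than 0.71 of the group's range. That is 8.33% of the groups, and chance alone sets apart about 0.05 of them. In the knockdown group GJD2-DT stood highest in replicate 2 at 34.8 CPM (group median 15.98), and PCMTD1-DT lowest in replicate 3 at 2.81 CPM (median 3.48). In the control group the highest libraries set apart were replicate 5 for DNAJC3-DT at 5.37 CPM (median 3.67) and for SLC12A2-DT at 12.6 CPM (median 10.2), replicate 4 for RANBP3-DT at 0.135 CPM (median 0.0298), replicate 1 for UBA6-DT at 8.62 CPM (median 7.25) and for ZNF8-DT at 8.95 CPM (median 8.10), and replicate 3 for ZMPSTE24-DT at 4.08 CPM (median 3.20). RNASEH1-DT stood lowest in control replicate 3 at 5.13 CPM (median 6.21).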

How the results depend on the processing

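With each library left out in turn, 253 to 264 members rose and 41 to 45 fell, with a median log2 fold change of 1.33 to 1.42, and the ratio rose in 261 to 277 pairs and fell in 41 to 49, with a median of 1.63 to 1.88. Without knockdown replicates 1 and 2, 261 rose and 45 fell, and 3 named ratios moved by over 1.5 times: TBC1D22A-DT to 8.68, MARCHF6-DT to 3.56 (2.97 with all libraries) and NIPBL-DT to 3.83 (3.23 with all libraries). Upper-quartile scaling shifted all genes by 0.197 and gave 274 and 37. Counts that moved by over 1.5 times came from smaller sets: 170 rose and 26 fell at a summed count of at least 500, 162 and 13 without exon overlap, the ratio fell in 27 pairs at a mean of at least 1 CPM, and rose in 163 and fell in 16 without exon overlap. Values that changed sign were not called in either setting. With single libraries left out these were ZBTB44-DT (-0.14 to 0.23), ZNF8-DT (-0.00097 to 0.11) and the ratio of GMDS-DT (-0.16 to 0.069). Without knockdown replicates 1 and 2 they were ZNF8-DT (-0.048) and the ratio of IRX2-DT (0.016). With upper-quartile factors it was NUP50-DT (0.025). The cause was not tested. Deviations of same-numbered libraries from their group means had correlations of -0.17 to 0.221. The replicate 2 libraries (0.221) were each other's best match, and knockdown replicate 3 also matched its own number best. The labels do not say whether the numbers pair the samples, and these correlations cannot decide it. With the replicate number as a block 256 rose and 41 fell, and the ratio rose in 267 pairs and fell in 42. Calls were lost in 30 combinations of a named value and a setting, over 5 values: DNAJC3-DT and the ratios of H2AZ1-DT, MAP4K3-DT, SCMH1-DT and WDR5B-DT. Depth limits the 67 members with under 50 control counts, whose folds rest on few reads.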

Other observations

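The first 1000 bases downstream of the annotated 5′ end were searched for AATAAA, the core polyadenylation signal, on the transcribed strand. It was in 36.5% of the members' windows, 39.0% of those of members that rose, 26.2% of those of members that fell and 14.5% of those of partners. On the other strand of the same windows the shares were 37.8%, 37.5%, 31.0% and 26.0% for these sets, so over all members it was no more frequent on the transcribed strand than on the other. Among all tested genes it was in 35.4% of lncRNA and 19.4% of coding windows. GGTAAG, a strong 5′ splice site string, was in 16.9% of the members' windows, 15.4% for those that rose, 23.8% for those that fell and 24.1% for partners. These shares describe the letters of the windows, and no test was made of them.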
